A study of Homo sapiens with 16 samples.

Results

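The 1984 regions described here are sites that an antibody to MITF called away from active promoters, without a call for MAFG, in GFP-overexpressing melanoma cells. Peaks of the 6 anti-MAFG and anti-MITF libraries of GFP cells were merged where they overlapped, which gave 43576 regions. A region was kept when at least 2 of 3 anti-MITF libraries and 0 of 3 anti-MAFG libraries had a peak in it and when no peak of either H3K4me3 library overlapped it. The regions, called MAFG-free distal MITF regions below, are 11.4% of the 17352 regions called in at least 2 anti-MITF libraries and 19.99% of the 9925 such regions without H3K4me3. Of the other distal MITF regions, 6498 had a MAFG call in at least 2 libraries (co-bound distal regions) and 1443 in 1 library.

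The cells are WM164, an established human melanoma line, made to overexpress either GFP, which serves as the comparison protein, or MAFG. The assay was CUT&RUN, in which an antibody on permeabilised nuclei guides a nuclease that releases the DNA around the bound protein. About 250000 cells went into each sample. Each line was profiled with anti-MAFG in 3 libraries, anti-MITF in 3 libraries and anti-H3K4me3 in 1 library, and the 2 anti-rabbit IgG samples were not analysed here. The labels do not name the vector, say whether a line is 1 clone, or say whether libraries of a group came from separate cultures, so the spread between libraries may be technical.

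MITF is a basic helix-loop-helix leucine zipper factor that governs the pigment cell lineage and binds E-box sequences, chiefly CACGTG and CATGTG, as a dimer. MAFG is a small MAF protein that lacks an activation domain of its own and binds MAF recognition and antioxidant response elements with partners such as NRF2 and BACH1. H3K4me3 is a histone mark of active promoters, and regions without it are called distal here. No enhancer mark was profiled, so whether they are enhancers was not tested.

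The lists held 19828, 20117 and 20102 peaks for anti-MITF and 26221, 23409 and 14879 for anti-MAFG in GFP cells. The MAFG-cell lists were shorter, with 2116 to 2495 peaks for anti-MITF and 1836 to 2818 for anti-MAFG. Read depth is not given in the lists. The lowest deposited −log10 p of a called peak was 4.19 to 4.45 in these GFP-cell lists and 5.198 to 5.47 in the MAFG-cell lists, so a peak needed a smaller p-value to be listed in MAFG cells, while the lowest −log10 q was alike in all lists (2.0002 to 2.15). Cell line and the p-value needed for a call cannot be told apart in any absolute number of calls, and the comparisons below set groups of regions side by side within the same libraries. H3K4me3 lay within 1000 bp of a start of DCT, MITF, MLANA and TYR in both lines, 4 of the 6 melanocyte markers with a start site in the RefSeq table, and not of TYRP1 or KIT. None of the 5 matched markers of keratinocytes, fibroblasts, blood and endothelium had it there.

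Few of the regions can be shown as sequence, because the reference used here covers only windows around gene starts, from 250 bases before to 50 after. Of the 1984 regions, 57 (2.87%) overlapped such a window, against 26.3% of all anti-MITF regions, and the 64 windows concerned include 26 of protein-coding genes. The following 4 windows each hold the summit of a GFP-cell anti-MITF peak and belong to regions that anti-MITF also called in 3 of 3 MAFG-cell libraries. They are RefSeq sequences of GRCh38.p14, 5′ to 3′ on the gene's strand, and capitals mark the E-boxes CACGTG or CATGTG read on either strand.
LOC124904068, chr17:78861975-78862274, plus strand: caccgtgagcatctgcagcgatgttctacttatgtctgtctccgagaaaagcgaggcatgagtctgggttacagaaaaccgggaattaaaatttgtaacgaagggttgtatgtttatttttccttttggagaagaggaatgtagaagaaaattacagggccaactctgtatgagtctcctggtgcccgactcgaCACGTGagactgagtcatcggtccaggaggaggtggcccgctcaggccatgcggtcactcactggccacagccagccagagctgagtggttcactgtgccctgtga
SLC11A2, chr12:51009166-51009465, minus strand: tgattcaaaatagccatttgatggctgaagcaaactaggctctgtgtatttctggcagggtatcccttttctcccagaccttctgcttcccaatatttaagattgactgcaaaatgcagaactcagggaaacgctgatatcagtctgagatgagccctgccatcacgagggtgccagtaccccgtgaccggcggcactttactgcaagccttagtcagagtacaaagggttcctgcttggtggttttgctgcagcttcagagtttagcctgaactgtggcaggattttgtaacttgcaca
SPON2, chr4:1173131-1173430, minus strand: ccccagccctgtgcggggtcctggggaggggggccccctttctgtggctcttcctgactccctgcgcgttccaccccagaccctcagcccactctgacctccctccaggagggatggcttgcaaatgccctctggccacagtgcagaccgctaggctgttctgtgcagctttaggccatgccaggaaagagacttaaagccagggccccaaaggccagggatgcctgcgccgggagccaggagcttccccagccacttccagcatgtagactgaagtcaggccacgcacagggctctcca
LOC105378130, chr6:167565664-167565963, plus strand: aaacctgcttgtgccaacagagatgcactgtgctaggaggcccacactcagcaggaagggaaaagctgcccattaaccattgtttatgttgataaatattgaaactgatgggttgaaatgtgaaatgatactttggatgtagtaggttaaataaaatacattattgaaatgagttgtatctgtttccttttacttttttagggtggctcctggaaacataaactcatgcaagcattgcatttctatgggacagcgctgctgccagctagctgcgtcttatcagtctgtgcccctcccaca

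LOC124904068 starts inside the body of TIMP2, a metalloproteinase inhibitor gene, and its window holds 1 CACGTG beginning at base 195, with a summit at base 73. SLC11A2 encodes an iron and divalent metal transporter, and all 3 anti-MITF summits fell in its window, at bases 14 to 113, where neither E-box occurs. SPON2, which encodes a secreted matrix protein, and LOC105378130 also have neither E-box within the window. The regions at these windows reached folds of enrichment over local background of 10.1, 8.54 and 12.2 at LOC124904068, 7.96, 10.9 and 7.50 at SLC11A2, 7.15, 7.17 and 5.51 at SPON2 and 6.64, 6.55 and 5.54 at LOC105378130 in GFP-cell libraries 1, 2 and 3. All of these folds are the authors' own, and folds of different libraries are set side by side as values without a ranking between lists.

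The next 4 windows are those of the best-ranked protein-coding genes whose window holds both a summit and an E-box, and anti-MITF called none of them in MAFG cells. SSBP3 encodes a partner of LIM-domain transcription complexes, NUDT1 an enzyme that removes oxidised nucleotides, CNDP2 a dipeptidase and SETDB1 a histone H3 lysine 9 methyltransferase.
SSBP3, chr1:54413441-54413740, minus strand: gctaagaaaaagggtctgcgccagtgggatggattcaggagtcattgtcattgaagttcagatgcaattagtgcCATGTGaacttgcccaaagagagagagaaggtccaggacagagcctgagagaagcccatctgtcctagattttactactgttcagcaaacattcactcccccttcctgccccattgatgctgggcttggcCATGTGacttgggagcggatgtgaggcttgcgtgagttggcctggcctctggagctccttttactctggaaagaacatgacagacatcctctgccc
NUDT1, chr7:2249061-2249360, plus strand: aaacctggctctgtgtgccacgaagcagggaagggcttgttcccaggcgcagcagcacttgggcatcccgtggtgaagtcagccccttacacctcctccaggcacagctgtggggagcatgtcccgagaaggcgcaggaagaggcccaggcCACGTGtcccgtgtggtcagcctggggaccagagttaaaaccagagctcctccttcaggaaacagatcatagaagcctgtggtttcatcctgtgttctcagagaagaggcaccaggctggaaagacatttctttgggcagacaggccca
CNDP2, chr18:74499642-74499941, plus strand: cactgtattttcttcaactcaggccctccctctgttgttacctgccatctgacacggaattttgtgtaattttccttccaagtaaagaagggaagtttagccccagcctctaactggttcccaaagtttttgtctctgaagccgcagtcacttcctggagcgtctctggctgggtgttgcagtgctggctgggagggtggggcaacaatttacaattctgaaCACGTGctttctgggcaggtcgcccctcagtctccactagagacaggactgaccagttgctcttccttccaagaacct
SETDB1, chr1:150926013-150926312, plus strand: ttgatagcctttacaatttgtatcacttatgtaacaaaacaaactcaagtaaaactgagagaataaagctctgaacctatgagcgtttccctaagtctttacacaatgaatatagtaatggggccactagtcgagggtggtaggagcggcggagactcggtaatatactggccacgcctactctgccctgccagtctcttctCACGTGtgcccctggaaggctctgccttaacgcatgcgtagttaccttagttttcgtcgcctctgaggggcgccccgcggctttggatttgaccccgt

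At SSBP3 the only summit inside the window was 4.5 bp from the middle of the nearer of 2 CATGTG matches. At NUDT1, CNDP2 and SETDB1 the distance to the CACGTG was 99.5, 210.5 and 167.5 bp. Each of these windows, and that of SSBP3, held the summit of 1 library only, though 2 or 3 libraries had called the region. Over the 12 windows with a summit and an E-box the distance had a median of 112 bp. E-boxes outside the windows could not be seen, so these are upper limits of the distance to the nearest E-box. The SETDB1 region ended 154 bp from the nearest H3K4me3 peak, which makes it distal only by the rule of no overlap.

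Over the 64 windows, CACGTG on either strand occurred in 12 (18.8%, 95% Wilson interval 11.1 to 29.97%), where 7.23% of all 34943 RefSeq windows of the same length held it. CATGTG occurred in 17 (26.6%, 17.3 to 38.5%), with 11.1% of all windows as background. Only 29 of the 64 windows held a GFP-cell anti-MITF summit, 29 held either E-box and 12 held both. These shares are therefore of windows that a region overlaps, not of windows at a summit. MITF regions without MAFG that overlap H3K4me3, of which there were 2301, covered 1920 windows, with CACGTG in 20.5% and CATGTG in 8.44%. Co-bound distal regions covered 187 windows, with 6.42% and 21.4%. TGANTCA, the AP-1 core that MAF elements contain, was found in 12.5% of the 64 windows (6.47 to 22.8%), 25.7% of the co-bound ones (19.9 to 32.4%), 3.75% of those at H3K4me3 and 7.72% of all. Other words were counted too, and higher shares were not limited to E-boxes. ACAAAG was found in 31.25% of the 64 and 16.1% of all, and ACAATG in 25% and 10.8%. The longer E-box TCACGTGA was found in 0 of the 64 and 0.979% of all, and TCATGTGA in 7.81% and 1.00%. TGACNNNGC was found in 10.9% of the 64, 13.9% of the co-bound ones and 13.3% of all. Median GC content was 51.8% in the 64 windows, 47.3%, 68.3% and 58.7% in the other 3 sets in the order co-bound, at H3K4me3 and all, so the sets differed in base composition, and its part in the motif shares was not tested. The intervals cover counting error only, since some windows overlap each other, and a match is not evidence of binding.

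The regions were weaker MITF peaks than co-bound distal regions. Peaks of each library were ranked by fold enrichment, with 100 for the strongest. A region took the best-ranked of its peaks in each library, and its rank percentile is the mean over the anti-MITF libraries that called it. The median was 44.7 (interquartile range 29.3 to 60.8) for MAFG-free distal regions, 56.7 for co-bound distal regions and 45.7 for MITF regions at H3K4me3 without MAFG. Only 138 (6.96%) reached the strongest of 5 equal rank bins, against 20.9% of co-bound distal regions. Median folds were 6.42, 5.90 and 6.10 in libraries 1, 2 and 3, and 7.28, 6.87 and 6.95 at co-bound distal regions. The median width was 908 bp, against 1480 bp at co-bound distal regions. Co-bound regions merge peaks of both antibodies, which widens them by construction, so the widths say nothing about strength. A wider region can also overlap more peaks, and the part of width in the ranks and in the calls below was not tested. These values come from the libraries that chose the regions and are a description.

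All 3 anti-MITF libraries called 888 of the regions, and 1096 were called by 2, with 386, 356 and 354 missing from library 1, 2 and 3. The missing calls were spread about evenly over the libraries. The regions with 3 calls had a median rank of 54.7 and those with 2 calls, just inside the threshold, 37.1. Just outside it, the 4366 distal regions with 1 anti-MITF call and no MAFG call had a median of 22.4, and the 1443 with 1 MAFG call had 49.0. Summits of the libraries lay a median of 171 bp apart within a region.

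By position, 1045 regions (52.7%) lay in the body of a protein-coding gene, against 49.9% of co-bound distal regions. The distance to the nearest start of a protein-coding gene in the RefSeq table had a median of 47048 bp over the 1875 regions outside chromosome 8, which the table leaves out, and 77061 bp for co-bound distal regions. The table holds starts for 15842 of 20033 protein-coding genes, so these distances are upper limits. Within 5000 bp of a start lay 9.60% of the regions, and 5.09% of co-bound distal ones. The nearest H3K4me3 peak was a median of 47705 bp away, with 45 regions closer than 1000 bp. The regions were thus nearer to genes than co-bound distal regions were, as a description of sets that the rule made.

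The nearest GFP-cell anti-MAFG peak lay a median of 16247 bp away, and 510 regions (25.7%) had one within 5000 bp. Another region of the set was found within 50 kb for 407 (20.5%), and a co-bound distal region for 724 (36.5%). A MAFG peak within 5000 bp was also found for 24.03% of MITF regions at H3K4me3 without MAFG. For distal regions with 1 anti-MITF call and no MAFG call the share was 35.9%. Of co-bound distal regions, 50.6% had another co-bound distal region within 50 kb. Some regions of the set therefore neighbour a site with MAFG, but these shares do not set them apart as unusually close to one.

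**Figure D1:**
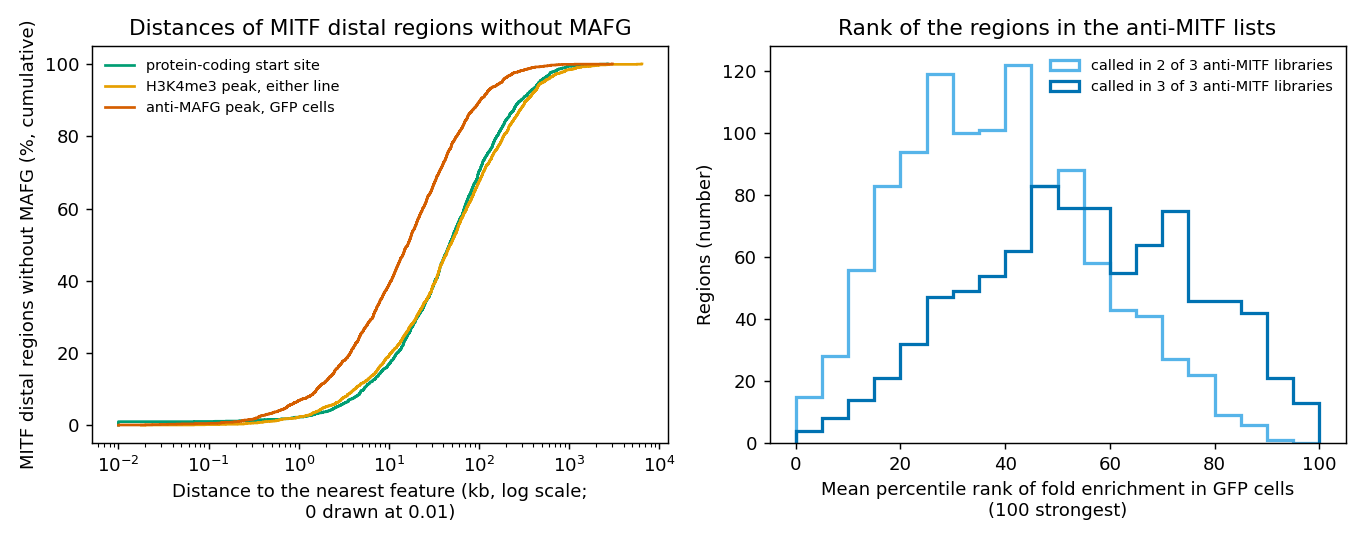
Left, cumulative percent of MAFG-free distal MITF regions by distance (kb, log scale, with 0 drawn at 0.01 kb) to the nearest RefSeq start of a protein-coding gene, H3K4me3 peak of either line and GFP-cell anti-MAFG peak; right, number of the regions by mean rank percentile of fold enrichment in GFP cells, for those called in 2 and in 3 anti-MITF libraries. The curve for MAFG peaks lies left of the others (median 16247 bp against 47048 bp for starts and 47705 bp for H3K4me3), and regions with 3 calls rank higher (median 54.7) than those with 2 (37.1).

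The 10 best-ranked regions had folds between 11.6 and 25.2 in every library. The first lay 534458 bp from MN1, a transcriptional coregulator gene, on chromosome 22 at 27212016 to 27213819, with folds of 18.1, 18.9 and 19.7. Of MAFG-cell libraries only the first called it, at a fold of 8.62. The region in NEK6, a mitotic kinase gene, had folds of 17.9, 17.4 and 17.2 and was called in all 3 MAFG-cell anti-MITF libraries at 9.02, 8.63 and 7.52. The region 17936 bp from ATF3, a stress-induced transcription factor gene, had 15.8, 15.1 and 15.9 and in MAFG cells 4.64, 4.65 and 7.36. The strongest regions therefore differed in whether MAFG cells listed them.

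JADE2, which encodes a subunit of a histone acetyltransferase complex, held a region with GFP-cell folds of 12.1, 15.4 and 17.1 and MAFG-cell folds of 12.1, 10.1 and 9.86. The region nearest DHX35, an RNA helicase gene, had 17.5, 16.1 and 17.1 and was called in no MAFG-cell library. It also ended 35 bp from a GFP-cell MAFG peak, so its place in the set rests on a gap of that size. The other 5 lay at or near ST18, ATP9B, IGF2BP2, HSPA9 and CHD9NB. The last was called in 3 MAFG-cell anti-MITF libraries and each of the rest in 2, and no MAFG-cell anti-MAFG library called any of the 10.

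The next question was how often MITF remained called at these regions when MAFG, not GFP, was overexpressed. MAFG-cell anti-MITF libraries 1, 2 and 3 called 189, 152 and 188 of the 1984 regions, which is 9.53%, 7.66% and 9.48% (mean 8.89% ± 1.06, SD, n = 3). Regions were also chosen with 1 GFP-cell replicate of both antibodies left out, which required a call in every remaining anti-MITF library. The mean was then 13.2%, 13.6% and 12.4% without replicate 1, 2 and 3. Co-bound distal regions were called at 14.97%, 12.8% and 14.7% (mean 14.2% ± 1.197), above the MAFG-free regions in each library. The difference was -5.28 percentage points, between -5.45 and -5.13 over libraries (two-sided exact sign-flip permutation test over 3 libraries, p = 0.25, the smallest 3 libraries allow).

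That gap went together with strength in GFP cells. Within 5 bins of rank percentile, from weakest to strongest, the MAFG-free regions were called at 3.20%, 4.42%, 6.17%, 14.1% and 36.2% (means of 3 libraries) and co-bound distal regions at 3.92%, 3.07%, 5.72%, 14.2% and 39.2%. With co-bound regions weighted to the same strengths, the shares were 8.89% and 8.63%, a difference of 0.255 points with a range over libraries of 0.164 to 0.307 (exact sign-flip test, p = 0.25, n = 3). Both shares were read in the same libraries, and the difference within a library had an SD of 0.0789. The size of this difference moved between 0.0412 and 2.30 over the other settings tried. In the strongest bin the MAFG-free regions were below co-bound ones in each library, at 39.1%, 34.8% and 34.8% against 41.1%, 37.1% and 39.4%. Against the 1443 distal MITF regions with MAFG in 1 library the difference at matched strength was -0.740 points, with a range of -1.35 to -0.202 (exact sign-flip test, p = 0.25, n = 3). The direction at matched strength thus differed between the sets compared with.

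**Figure D2:**
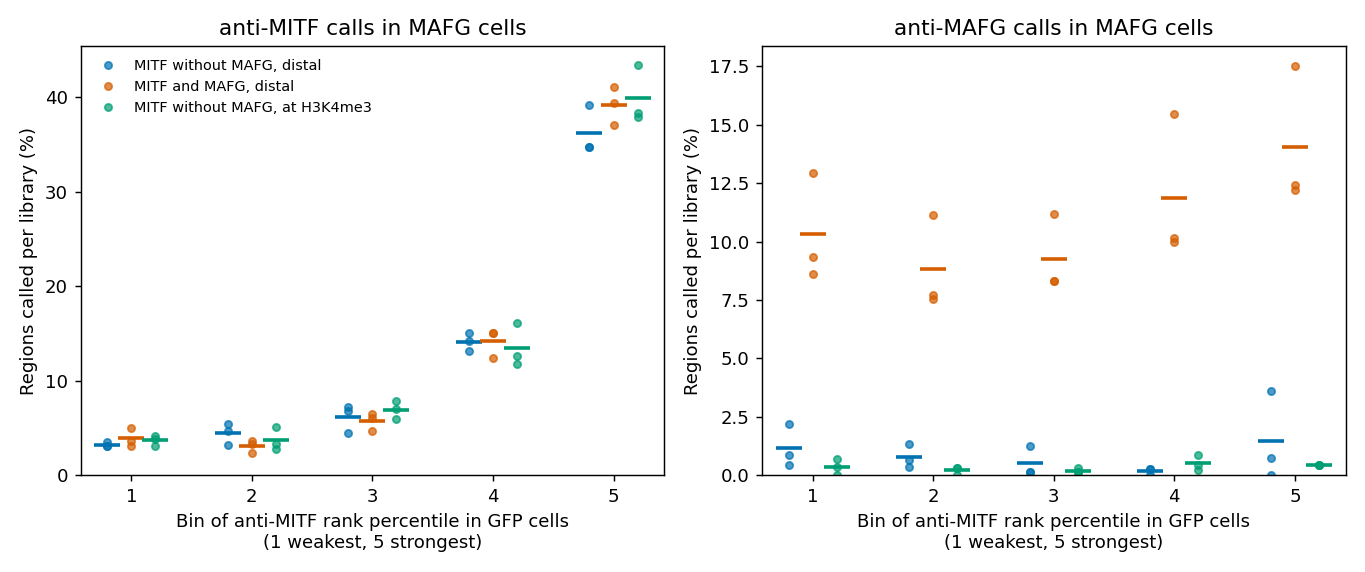
Percent of regions called in MAFG cells by bin of anti-MITF rank percentile in GFP cells (1 weakest, 5 strongest), for anti-MITF (left) and anti-MAFG (right), in MAFG-free distal regions (blue), co-bound distal regions (orange) and MITF regions without MAFG at H3K4me3 (green); dashes are means and points the 3 libraries. Anti-MITF shares of the MAFG-free regions (3.20% to 36.2%) lie close to those of co-bound distal regions in each bin, whereas their anti-MAFG shares average between 0.179% and 1.45% and those of co-bound regions between 8.81% and 14.04%.

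MITF regions at H3K4me3 without MAFG were called at 10.8%, 9.08% and 10.3% (mean 10.1% ± 0.880, SD, n = 3). The MAFG-free distal regions were below this in each library, by a difference of -1.18 points (exact sign-flip test, p = 0.25). At matched strength the difference was -0.228, with a range over libraries of -0.490 to 0.0859 (p = 0.5 by the same exact test), so it no longer had the same sign in each library. Taking only regions with a −log10 q of 5 or more turned this difference to 0.187 points in favour of the distal regions, and taking only regions in 3 of 3 libraries turned it to 0.166, so its direction depends on the setting.

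At least 1 MAFG-cell anti-MITF library called 304 of the regions (15.3%), beside a background of 19.8% for all 17352 anti-MITF regions. At least 2 called 151 (7.61%, background 11.3%) and all 3 called 74 (3.73%, background 6.7%). The 74 had a median GFP-cell rank of 72.8, with a range of 5.57 to 98.8, and the 1680 never called had 42.4. Of the 138 regions in the strongest rank bin, 66 (47.8%) were called in no MAFG-cell anti-MITF library, much as for co-bound distal regions (46.5%) and regions at H3K4me3 (47.5%) of that bin. Regions with 3 calls in GFP cells were called at least once in MAFG cells in 26.8% of cases, and those with 2 calls in 6.02%.

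Among the regions called in 3 of 3 MAFG-cell anti-MITF libraries, the 10 with the best mean ranks there were taken, and their folds in those libraries ran from 9.25 to 15.1. The region in KCNC2, a voltage-gated potassium channel gene, led with 13.5, 11.7 and 14.7 in MAFG cells and 9.36, 15.1 and 15.2 in GFP cells. The TIMP2 region, whose inner start window is shown above, had 14.2, 12.5 and 11.6 in MAFG cells and 10.1, 8.54 and 12.2 in GFP cells. The region in CPNE5, a gene for a calcium-dependent membrane-binding protein, had 12.8, 14.8 and 10.52 there, and was the only one of the 10 that a MAFG-cell anti-MAFG library called, library 3 at a fold of 8.18.

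The others lay at or near SMIM45, NFAT5 (the factor of the osmotic stress response), TRPM4 (a calcium-activated cation channel), STAM (an endosomal sorting adaptor), MATN1 (a cartilage matrix protein), JADE2 and GPR42. Their GFP-cell ranks lay between 72.3 and 96.3, so all 10 were among the stronger regions of the set in both lines. TRPM4 and GPR42 are on chromosome 19.

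MAFG overexpression was accompanied by few MAFG calls at these regions. MAFG-cell anti-MAFG libraries 1, 2 and 3 called 6, 7 and 27 of the 1984 regions, or 0.302%, 0.353% and 1.36% (mean 0.672% ± 0.597, SD, n = 3). Library 3, which has the longest list, supplied most of these calls, and without it the mean was 0.328%. With the regions chosen without GFP-cell replicate 1, 2 and 3 of both antibodies the mean was 1.33%, 0.894% and 0.780%. That choice excludes regions on 1 anti-MAFG list fewer, so it loosens the MAFG part of the rule. Co-bound distal regions were called at 9.45%, 9.53% and 13.7% (mean 10.9% ± 2.41), a difference of -10.2 points (exact sign-flip test, p = 0.25) and of -9.40 at matched strength (p = 0.25 by the same exact test). Co-bound regions were defined by MAFG calls in GFP cells, so this difference sets apart regions already chosen on that antibody. MITF regions at H3K4me3 without MAFG, chosen without MAFG as well, were called at 0.304% ± 0.115.

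Within the MAFG-free regions, anti-MITF shares in MAFG cells exceeded anti-MAFG shares by 8.22 points. The regions were chosen for anti-MITF calls and against anti-MAFG calls in GFP cells, so the choice itself favours this direction and the value is a description. At least 1 anti-MAFG library called 30 regions (1.51%), against 10.2% of all anti-MITF regions. At least 2 called 8 (background 5.13%) and all 3 called 2 (background 2.89%). Of the 30, 16 (53.3%) were also called by anti-MITF in MAFG cells, beside 760 of 1764 (43.1%) over all anti-MITF regions.

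Of the 2 regions called in all anti-MAFG libraries, 1 was near HMOX1. The HMOX1 region, on chromosome 22 at 35371549 to 35372343, lay 8753 bp from the body of HMOX1, the heme oxygenase gene that small MAF proteins are known to control with BACH1 and NRF2. It had folds of 16.2, 17.4 and 15.7 for anti-MAFG in MAFG cells, at rank percentiles of 96.9, 98.5 and 96.6 of those lists. In GFP cells anti-MITF called it at 3.31 in library 1 and 6.91 in library 2, with no peak in library 3. Those are rank percentiles of 0.222 and 63.5. Anti-MITF called it in no MAFG-cell library. It was thus an uneven MITF call in GFP cells, with a mean rank percentile of 31.8, and among the strongest MAFG calls in MAFG cells. MAFG was not absent from the locus in GFP cells. A GFP-cell MAFG peak lay 2625 bp from the region, and HMOX1 had 1 co-bound distal region within 50 kb.

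A further 6 regions were called in 2 anti-MAFG libraries. Those near PPARG, a nuclear receptor gene of fat cell differentiation, and in SMOX, a polyamine oxidase gene, reached 15.97 and 11.5 for anti-MAFG in library 3, and 8.99 and 8.48 in library 1. Neither was called by anti-MITF in MAFG cells, as at HMOX1. The regions near LHFPL2 and in TMCC2, PPCDC and XYLT1 were called by anti-MITF in 2 or 3 MAFG-cell libraries as well. PPCDC, a gene of coenzyme A synthesis, had anti-MITF folds of 10.2, 8.40 and 12.5 there, and anti-MAFG folds of 5.32 and 7.71 in libraries 2 and 3.

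**Figure D3:**
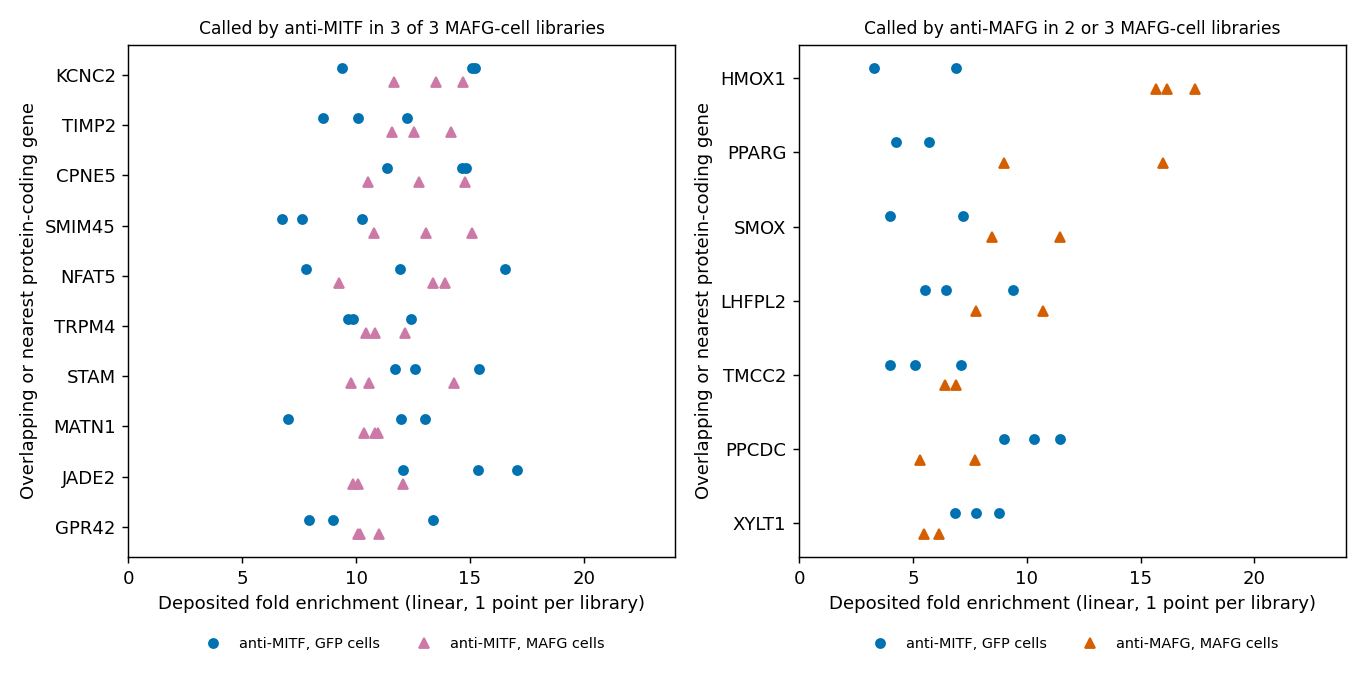
Deposited fold enrichment (linear) of single regions, 1 point per library that called the region: left, the 10 best-ranked among those called by anti-MITF in 3 of 3 MAFG-cell libraries; right, 7 of the 8 called by anti-MAFG in 2 or 3 MAFG-cell libraries. Names are the overlapping or nearest protein-coding gene; HMOX1 has anti-MAFG folds of 15.7 to 17.4 in MAFG cells and anti-MITF folds of 3.31 and 6.91 in GFP cells, and folds of different libraries are shown side by side without a ranking or test.

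Genes near the regions were read from the RefSeq table, with a gene counted when a region lay in its body or within 50 kb. Of 97 listed genes of pigment cell and MAF biology, 25 (25.8%) had such a region, beside 12.9% of all 20033 protein-coding genes. Co-bound distal regions gave 35 (36.1%), beside 20.8%. Within 10 kb, 12 listed genes had a region of the set, beside 6.39% of all genes. No test was made of these counts.

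Of 10 pigment synthesis genes, 3 had a region. The one 17656 bp from TYRP1, which encodes a melanosomal enzyme of eumelanin synthesis, lay 18139 bp upstream of the start with folds of 4.65, 6.34 and 6.85. The one inside DCT, the dopachrome tautomerase gene, had 5.98, 7.10 and 5.74. The one 30079 bp from GPNMB, which encodes a melanosomal glycoprotein, had 6.71 and 5.84 in libraries 1 and 3 and no peak in library 2. No MAFG-cell library of either antibody called any of these 3, and none of the 3 genes had a co-bound distal region within 50 kb. The nearest GFP-cell MAFG peak still lay 23497, 2483 and 24198 bp from the regions of TYRP1, DCT and GPNMB. TYR, MLANA, PMEL and the other listed pigment genes had no region of the set in that window.

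Of 8 melanosome transport genes, 3 had a region in their body. In MYO5A, the myosin motor that carries melanosomes, the folds were 3.98, 3.93 and 7.32, and MAFG-cell anti-MITF libraries 1 and 3 called it at 5.92 and 9.63. That region ended 333 bp from a GFP-cell MAFG peak. In RAB7A, a late endosome GTPase gene, the folds were 5.93, 5.56 and 4.69. In HPS4, a gene of lysosome-related organelle formation, they were 5.61 and 4.86 in libraries 1 and 2. Neither was called in MAFG cells.

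Of 14 lineage regulator genes, 3 had a region. MITF itself had 3 regions beside 13 co-bound distal ones. The best-ranked, 14342 bp beyond the gene body on chromosome 3 at 69982674 to 69983509, had GFP-cell folds of 4.82, 6.08 and 5.48, and all MAFG-cell anti-MITF libraries called it, at 6.12, 8.50 and 9.16. The regions inside the gene had 5.26 and 5.45 in libraries 2 and 3 and 4.54 and 4.60 in libraries 1 and 2, and neither was called in MAFG cells. The MITF locus was thus called mostly together with MAFG, and among the 4 MITF family genes MITF alone had a region of the set.

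SOX10, a neural crest transcription factor that acts upstream of MITF, had 3 regions and no co-bound distal region. They lay 13761, 41705 and 48686 bp from its body. The nearest GFP-cell MAFG peak was 13016, 9629 and 2995 bp from them, in the same order, so the locus was not free of MAFG peaks. The farthest, within POLR2F, was the best-ranked at 6.24, 7.42 and 6.96, and MAFG-cell anti-MITF library 1 called it at 5.66. The others had 4.25, 5.21 and 4.44 in libraries 1, 2 and 3 at the middle one, and 5.39 and 4.55 in libraries 1 and 3 at the nearest. SOX5, a gene of the same family, had 1 region 34724 bp upstream of its start, at 3.98 and 4.99 in libraries 1 and 3, beside 9 co-bound distal regions.

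Of 12 listed MITF targets in survival and cell cycle, 3 had a region. PPARGC1A, the PGC-1α gene of mitochondrial biogenesis, had the strongest region near any listed gene, at rank percentile 88.1 with folds of 11.7, 10.4 and 9.05, and no MAFG-cell library called it. A further region inside PPARGC1A had 6.64 and 6.92 in libraries 1 and 3, and the gene had 7 co-bound distal regions. The region 4436 bp beyond MET, the hepatocyte growth factor receptor gene, had 7.89 and 7.39 in libraries 1 and 3. The one in BCL2, an inhibitor of apoptosis, had 4.32 and 4.85 in libraries 1 and 3. Neither was called in MAFG cells.

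Of 15 lysosome and autophagy genes, 4 had a region, among them ATP6V1B2, HEXA and WIPI1. The WIPI1 region, at rank percentile 73.0, lay within PRKAR1A, 16236 bp from WIPI1. It was called in all 3 MAFG-cell anti-MITF libraries at 7.47, 7.28 and 4.26. Of 10 MAPK feedback genes DUSP6 and SPRY4 had a region, and of 13 genes of the dedifferentiated state 3 did, among them the Hippo pathway factors TEAD1 and TEAD4. The TEAD1 region, 36413 bp from the gene, had folds of 5.98, 6.59 and 8.94 and was not called in MAFG cells. The TEAD4 region, 14259 bp from the gene, had 5.76 and 5.90 in libraries 1 and 2.

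Of 12 MAF and NRF2 target genes, 4 had a region in the window. Beside HMOX1 these were GCLC, which encodes the catalytic subunit of glutathione synthesis, and the ferritin genes FTL and FTH1. The GCLC region lay in the gene body. The FTL region lay 37669 bp from FTL and nearer to NUCB1, at 3021 bp, and the FTH1 region lay 37311 bp from FTH1. Folds were 7.20, 3.93 and 6.92 for the GCLC region and 5.04, 5.90 and 6.23 for the FTL region. The FTH1 region had 4.97 and 4.69 in libraries 1 and 3. HMOX1 was the only one of the 4 whose region MAFG-cell libraries called.

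Of all protein-coding genes 2580 had at least 1 region within 50 kb, and 13 genes had 4, the most of any. Several of the 13 overlap or adjoin each other and share the same regions, such as CCN5 with KCNK15 and CDRT4 with TVP23C-CDRT4. CACNA1C, a calcium channel gene, had its 4 spread over 405 kb, with ranks from 12.995 to 88.3. CCN5, which encodes a secreted matricellular protein, had them within 41.1 kb, at ranks of 29.1 to 81.5. MAFG-cell anti-MITF libraries called 1 region of each of these 2 genes.

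The regions were spread unevenly over chromosomes. On chromosome 19 they made up 52 of 67 distal MITF regions (77.6%), against 12.3% to 40.8% on each other chromosome and 19.6% over all others together. Chromosome 22 followed at 40.8%, X at 38.3%, 16 at 37.3%, 9 at 32.2% and 17 at 32.1%, and chromosome 3 was lowest. Chromosome 19 held 0.545%, 0.453% and 0.370% of GFP-cell anti-MAFG peaks in libraries 1, 2 and 3, 2.14%, 2.15% and 2.11% of anti-MITF peaks and 6.98% of H3K4me3 peaks. In MAFG cells, whose libraries the rule did not use for MITF and MAFG, it held 0.817%, 0.649% and 0.887% of anti-MAFG peaks and 1.65%, 1.70% and 2.12% of anti-MITF peaks, again without overlap. The small share of MAFG peaks on this chromosome therefore appears in both lines.

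Chromosome 19 has 24.8 protein-coding genes per Mb up to its last gene, the most in the table, and a median GC of 62.7% in its start windows, where the chromosomes with a value ran from 52.3% to 63.3%. Over 23 chromosomes the share of MAFG-free regions and genes per Mb had a Pearson correlation of 0.82 and a Spearman correlation of 0.46, and without chromosome 19 these were 0.44 and 0.39 over 22. The points share the same libraries, and the correlations are a description. Whether base composition or gene density bears on the share was not tested. Without chromosome 19 the share of regions called by anti-MITF in MAFG cells was 8.75% and the difference from co-bound regions -5.43 points.

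**Figure D4:**
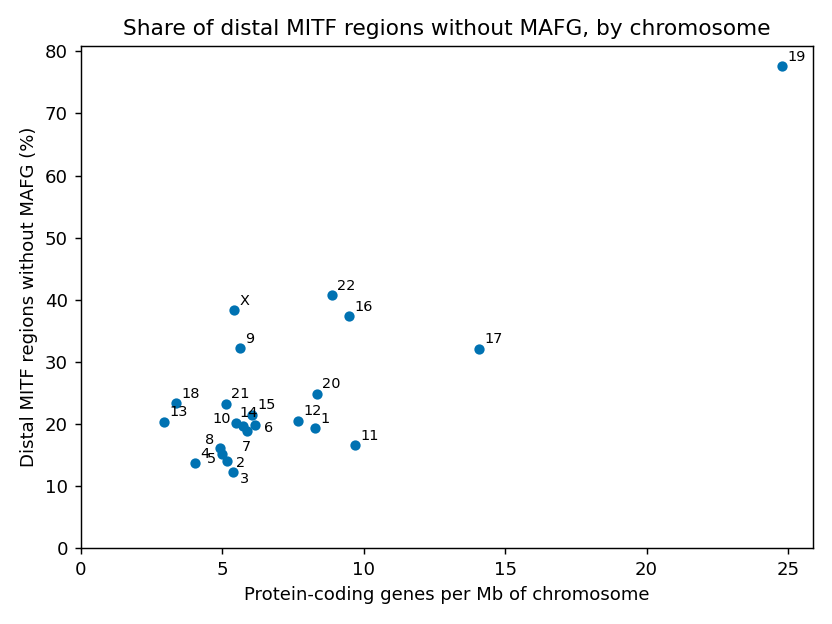
Percent of distal MITF regions without MAFG, per chromosome, against protein-coding genes per Mb; each point is 1 chromosome, with its name. Chromosome 19 stands apart at 77.6% and 24.8 genes per Mb, and the other 22 lie between 12.3% and 40.8%.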

How the data were processed

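The 14 deposited peak lists, 1 per library, hold what the authors made: peak positions and summits, a score, a fold enrichment (a linear ratio), and the −log10 of p and q, per the file layout. The submitters' processing notes name cutadapt 1.8.1, Bowtie2 2.4.1, MACS2 2.1.1.20160309, ChIPseeker 1.32.1, deepTools and the build GRCh38 (hg38), with no settings. The control used in calling is not given in the sources used here.

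Peaks were merged where they overlapped by at least 1 bp, and any peak of a library inside a region counted as its call. Shares per library were compared with exact sign-flip and permutation tests over libraries (Python 3.11.15, pandas 2.3.3, scipy 1.17.1). Rank percentiles use the deposited fold within each list. Strength matching weighted co-bound regions to the members' numbers in 5 bins of rank percentile, 20 points wide. The members and gene lists were chosen with earlier results of these data known.

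Named regions are the 10 best-ranked with 3 anti-MITF calls in GFP cells, the best-ranked near each listed gene, the 10 best-ranked with 3 anti-MITF calls in MAFG cells, and those with at least 2 anti-MAFG calls there. Of the genes with the most regions, 13 tied where 5 were to be named. Other regions near listed genes and the printed windows were chosen after their values were seen. No genome sequence was used here, so motif shares and sequences at summits were not analysed, and start windows replaced them. A few of the named regions are not reported here. The code was run on simulated lists of well-separated regions with overlapping planted peaks, where 200 of 200 planted regions were found. This checks the code and not how real regions close to a MAFG peak are classed. Alternatives were a stricter q, other overlaps, windows and definitions of distal and co-bound, equal peak numbers, and left-out libraries.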

Additional observations from a re-analysis of the deposited data

How the results depend on the processing

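The lower share of anti-MITF calls in MAFG cells than at co-bound distal regions kept its direction in all 13 alternatives (-5.50 to -2.39 points), and the difference between anti-MITF and anti-MAFG shares, whose direction the choice of regions favours, ran from 7.07 to 15.8 in 16. The difference from co-bound regions at matched strength stayed above 0 in all 13 (0.0412 to 2.30) and has no stable size. The difference from MITF regions at H3K4me3 without MAFG reversed to 0.187 points with a −log10 q of at least 5 and to 0.166 with calls in 3 of 3 anti-MITF libraries, and kept its sign in the other 10 (-1.34 to -0.0561). The cause was not tested. Requiring 3 of 3 libraries left 888 regions by construction, and a window of 10 kb left 12 listed genes. Leaving out single replicates gave -5.38 to -4.45 points against co-bound regions, 0.229 to 1.71 at matched strength, -1.34 to -0.0561 against regions at H3K4me3, 7.90 to 12.7 between antibodies and 1325 to 1884 regions. Leaving out a GFP-cell replicate dropped its lists of both antibodies, and every remaining anti-MITF library then had to call a region. The 12.7 and the 1.71 came without GFP-cell replicate 2, and without replicate 1 the matched difference was 1.06. Against regions at H3K4me3 it was -0.0561 without GFP-cell replicate 2 and -0.564 without replicate 3.

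The replicate block between antibodies gave the same 8.22 points (exact p = 0.25, the smallest it allows). Same-numbered libraries had correlations of -0.0133, -0.00871 and -0.0102 in their deviations, so the numbers were not taken as pairs. Leaving out chromosome 19 was chosen after seeing the data and gave 8.07 points between antibodies and 0.131 at matched strength. Windows of other lengths around summits were not run, since no genome sequence was used here. Read depth is not given in the lists, and no exact test over 3 libraries a group can pass 0.05.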
